A study of Saccharomyces cerevisiae with 12 samples.

Results

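The genes described here encode 5 enzymes that reduce reactive carbonyl compounds (GRE2, GRE3, GCY1, YPR1 and ARA1) and 3 enzymes of the glyoxalase path (GLO1, GLO2 and GLO4) in the budding yeast Saccharomyces cerevisiae. They are 8 of 5449 genes measured, taken from the probe annotation by name, and each is read by 1 probe set whose name carries no mark of shared or cross-hybridizing sequence. GRE2 heads the set because it was chosen by its large log2 change with alachlor at both doses on these same arrays. The other genes were listed for their place in methylglyoxal and carbonyl metabolism, with the alachlor results in view. Values in the alachlor comparisons are therefore given as a description, without p-values for these genes.

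Cells of strain BY4741 in exponential growth in minimal medium were kept for 2 h with alachlor, a chloroacetanilide herbicide, or without it, and their RNA was measured on 12 Affymetrix Yeast Genome 2.0 arrays. There were 4 groups of 3 biological replicates: cells with 110 mg/L alachlor, called the LOEC by the submitters, their untreated LOEC controls, cells with 200 mg/L alachlor, called the IC20, and their untreated IC20 controls. Each dose was run as an experiment of its own, so changes are taken over the controls of the same experiment. Levels set side by side across the experiments are a description, in which dose and experiment cannot be told apart. BY4741 is a haploid strain of mating type a, known to lack LEU2, URA3 and MET17 and to carry a partial deletion of HIS3, and all 4 groups share this background. All cultures come from this 1 laboratory strain, and messenger RNA is the only layer measured here.

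Methylglyoxal is a toxic dicarbonyl that forms by side reaction from the triose phosphates of glycolysis. Cells remove it in the glyoxalase path, in which GLO1 joins it to glutathione as lactoylglutathione and a glyoxalase II (GLO2 in the cytosol, GLO4 in mitochondria) releases D-lactate and glutathione. It can instead be reduced with NADPH by GRE2, a short-chain reductase, or by GRE3, an aldose reductase, both of which take several other carbonyl substrates and are known as stress-response genes. GCY1, YPR1 and ARA1 belong, like GRE3, to the aldo-keto reductases, and GCY1 and YPR1 are a pair of paralogs.

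Values are intensities on a linear scale, as deposited, and changes are given on the log2 scale with no pseudocount. Array medians lay between 1561 and 1613. The markers of mating type a, namely MFA1, MFA2, STE2 and BAR1, read at least 6179 on all arrays, and those of mating type alpha at most 377. Probe sets of the deleted loci read up to 228.8, and a reading at that level is taken as having only an upper bound. The alpha marker MF(ALPHA)2 read up to 377, so 228.8 is not a firm limit for genes that are not expressed. Across genes, the SD of log2 values within a group had a median of 0.057 at 110 mg/L and 0.056 in LOEC controls, against 0.095 at 200 mg/L and 0.082 in IC20 controls, so the higher-dose experiment is the noisier one. In that experiment the distance of an array from its group mean went with the coding length of the gene, with Spearman's rho across genes, array by array, between -0.488 and 0.570. IC20 control array 2 and 200 mg/L array 1 lay at the negative end, and 200 mg/L array 3 at the positive end. The number of arrays limits the precision.

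GRE2 and GCY1 were called higher with alachlor at both doses, GLO1 and GLO4 were called higher at 200 mg/L and not at 110 mg/L, and no gene of the set was called lower at either dose. For GLO1 and GLO4 the difference between the doses was itself not called. A gene counts as called when the moderated test of limma, fitted over all 5449 genes, gave a Benjamini-Hochberg adjusted p under 0.05. At 110 mg/L 2 of the 8 genes rose and 0 fell, where 4.26% of all genes were called, 3.05% as higher and 1.21% as lower. At 200 mg/L 4 rose and 0 fell, where 17.8% of all genes were called, 10.0% as higher and 7.80% as lower. Nothing is read from these counts, since the genes were listed with these comparisons known. The median log2 change of the 8 genes was 0.018 at 110 mg/L and 0.13 at 200 mg/L, beside medians over all genes of 0.0052 and 0.00021. The treated arrays lay wholly above the controls in 2 genes at 110 mg/L and in 5 at 200 mg/L, as they did in 15.4% and 16.3% of all genes. They lay wholly below in 0 of the 8 genes at either dose, against 12.2% and 14.5% of all genes, and 27.6% and 30.8% of all genes were apart in one direction or the other.

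**Figure D1:**
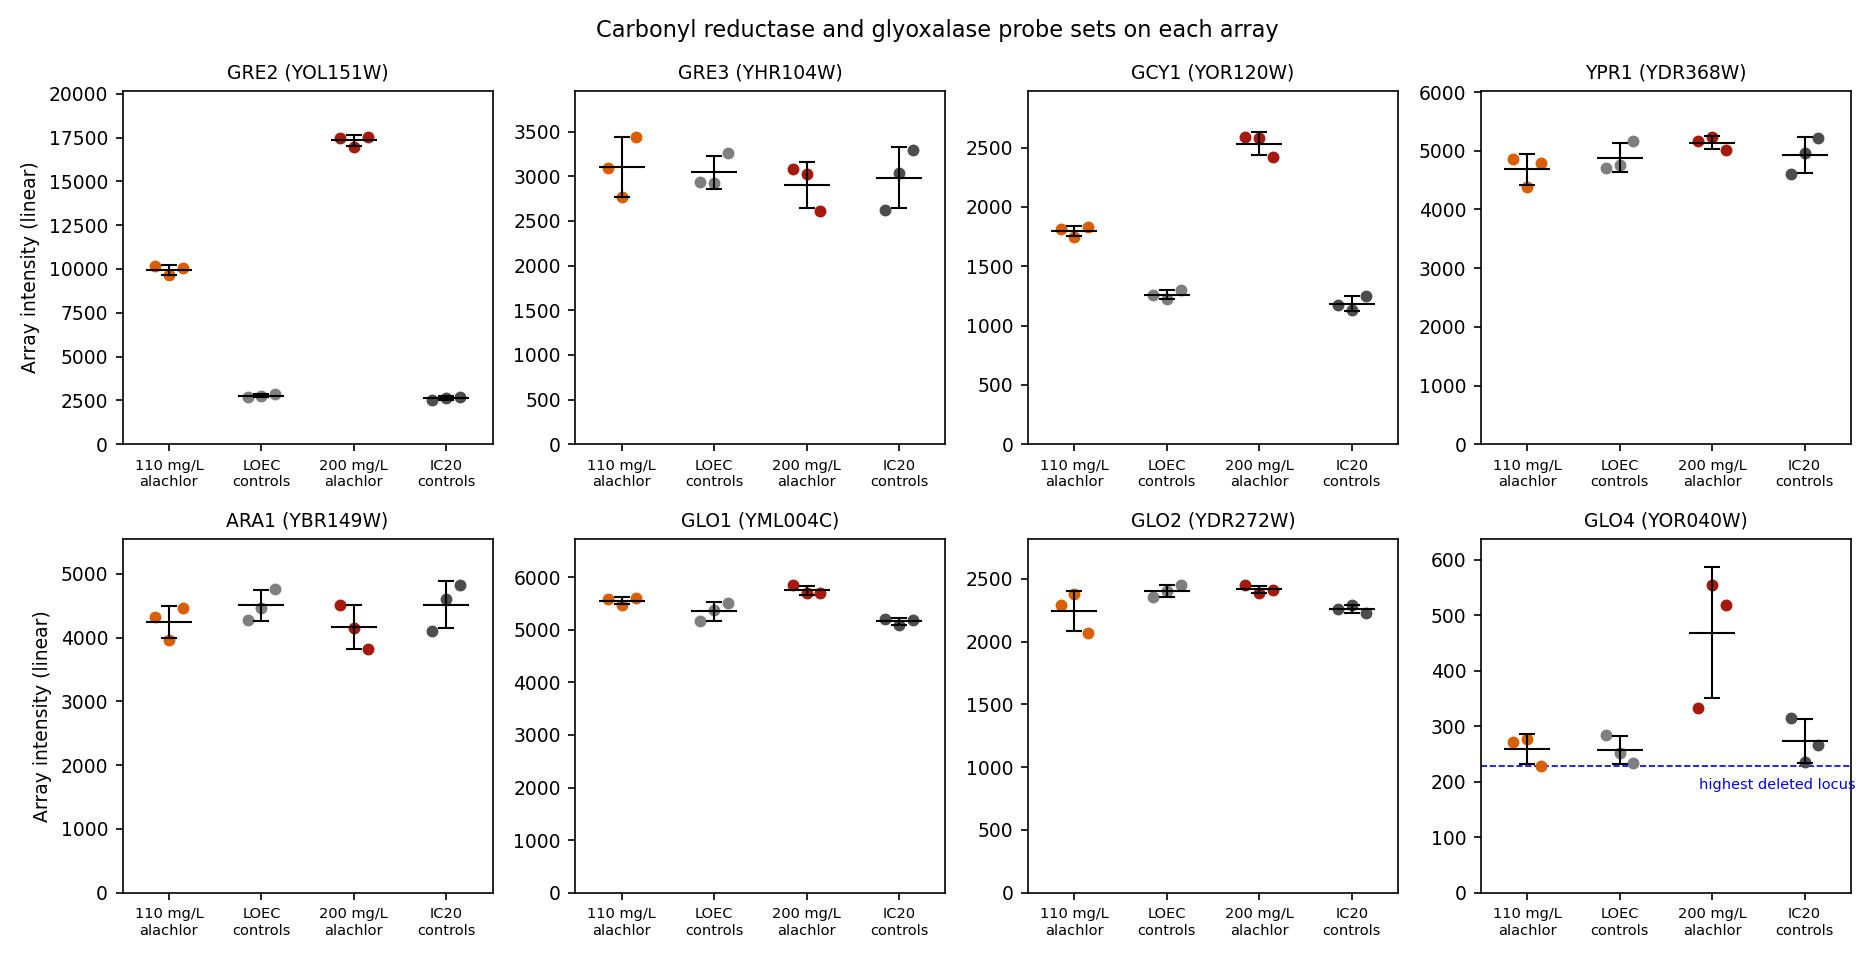
Intensity of each of the 8 genes on each array (points, linear axis from 0), by group, with the mean and SD of 3 arrays in black and a dashed line at 228.8, the highest reading of a deleted locus, in the panel of GLO4. GRE2 and GCY1 stand apart from their controls at both doses, while GRE3, YPR1 and ARA1 overlap them.

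GRE2 (YOL151W), the NADPH-dependent reductase of methylglyoxal, had by far the largest change of the set. Its intensity on the 3 arrays was 10152, 9638 and 10063 at 110 mg/L, against 2708, 2729 and 2864 in LOEC controls. At 200 mg/L it was 17457, 16988 and 17551, against 2517, 2646 and 2714 in IC20 controls. No treated array came near a control array, and the arrays at 200 mg/L all lay above those at 110 mg/L. The group means were 9951 ± 275 at 110 mg/L and 2767 ± 84.9 in LOEC controls, and 17332 ± 302 at 200 mg/L and 2626 ± 100.1 in IC20 controls (SD, n = 3 each). The change was 3.60-fold at 110 mg/L (log2 1.85, SE 0.043) and 6.60-fold at 200 mg/L (log2 2.72, SE 0.043). In the order of log2 changes of all 5449 genes GRE2 came at place 2 at both doses. These are the values for which the gene was chosen.

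GCY1 (YOR120W), an aldo-keto reductase known for oxidizing glycerol with NADP, was the other gene called at both doses. It read 1818, 1748 and 1830.1 at 110 mg/L, against 1261, 1225 and 1301 in LOEC controls, and 2593, 2583 and 2424 at 200 mg/L, against 1171, 1135 and 1253 in IC20 controls. Treated and control arrays did not overlap in either experiment. The change was 1.43-fold at 110 mg/L (log2 0.51, SE 0.049) and 2.14-fold at 200 mg/L (log2 1.09, SE 0.049). It came at place 77 of all log2 changes at 110 mg/L and place 38 at 200 mg/L.

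Its paralog YPR1 (YDR368W), known for reducing branched-chain and other aldehydes, was called at neither dose. YPR1 read 4858, 4387 and 4800.1 at 110 mg/L, against 4708, 4764 and 5164 in LOEC controls, and 5160.1, 5241 and 5018 at 200 mg/L, against 4602, 4962 and 5212 in IC20 controls. The groups overlapped in both experiments. Its log2 change was -0.060 at 110 mg/L (95% interval -0.19 to 0.072) and 0.063 at 200 mg/L (-0.068 to 0.19). The interval at 200 mg/L thus ends well below the 0.99 to 1.20 of GCY1, although the difference between the paralogs was not tested.

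GRE3 (YHR104W), the aldose reductase that also takes methylglyoxal, was called at neither dose. It read 3097, 2767 and 3443 at 110 mg/L, against 2938, 2929 and 3261 in LOEC controls, and 3081, 3027 and 2611 at 200 mg/L, against 2617, 3034 and 3294 in IC20 controls. Its treated arrays lay among the controls at both doses. The log2 change was 0.024 at 110 mg/L (95% interval -0.20 to 0.25) and -0.034 at 200 mg/L (-0.26 to 0.19), so changes of up to about these bounds cannot be told from none.

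ARA1 (YBR149W), a dehydrogenase of arabinose and other sugars and reductase of dicarbonyls, read 4318, 3969 and 4458 at 110 mg/L, against 4280.3, 4469.7 and 4759 in LOEC controls. It read 4509, 4153 and 3824 at 200 mg/L, against 4103, 4608 and 4822 in IC20 controls. Its means were lower with alachlor at both doses but the arrays overlapped, and neither change was called. The log2 change was -0.084 at 110 mg/L (95% interval -0.26 to 0.089) and -0.12 at 200 mg/L (-0.29 to 0.057).

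**Figure D2:**
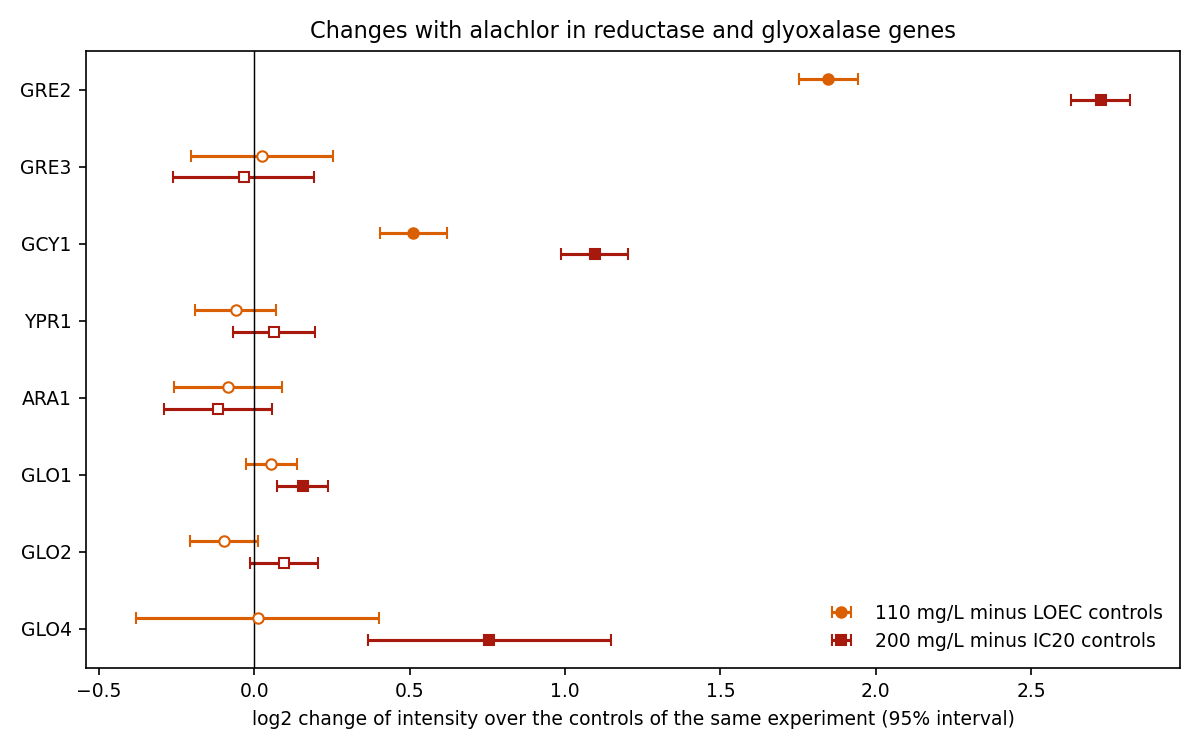
Log2 change of intensity at 110 mg/L (circles) and 200 mg/L (squares), each over the controls of the same experiment, with the 95% interval of the fit over all genes; filled symbols mark genes called at adjusted p under 0.05. Only GRE2, GCY1 and, at 200 mg/L, GLO1 and GLO4 are filled, and the interval of GLO4 is the widest.

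In the glyoxalase path 0 of 3 genes were called at 110 mg/L by limma (0 also at an unadjusted p under 0.05), and 2 of 3 at 200 mg/L. Of all genes 4.26% and 17.8% were called at these doses, 3.05% and 10.0% as higher, and nothing is read from the counts. GLO1 (YML004C), glyoxalase I and the entry step of the path, read 5593, 5469 and 5599.7 at 110 mg/L, against 5158, 5375 and 5506 in LOEC controls. With 200 mg/L it read 5848, 5693 and 5703, against 5210.2, 5087 and 5185 in IC20 controls. The arrays overlapped at 110 mg/L, by 1 array, and were apart at 200 mg/L. The change was small at both doses, 3.90% at 110 mg/L (log2 0.055, SE 0.037, not called) and 11.4% at 200 mg/L (log2 0.16, SE 0.037). When IC20 control array 2 and 200 mg/L array 1 were both left out, the log2 change at 200 mg/L was 0.13 and the call was lost, as it also was in a fit of only the 6 arrays of that experiment.

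GLO2 (YDR272W), the cytosolic glyoxalase II, was called at neither dose, and its means differed from the controls in opposite directions. It read 2292, 2378 and 2070.0 at 110 mg/L, against 2354, 2402 and 2446 in LOEC controls. With 200 mg/L it read 2449, 2388 and 2407, against 2259.7, 2288 and 2225 in IC20 controls. The arrays overlapped at 110 mg/L, where array 3 was the low one, and were apart at 200 mg/L. The log2 change was -0.098 at 110 mg/L (95% interval -0.21 to 0.012) and 0.097 at 200 mg/L (-0.012 to 0.21). Without 110 mg/L array 3 the change at that dose was -0.040.

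GLO4 (YOR040W), the mitochondrial glyoxalase II, was the dimmest of the set against the level of the deleted loci. It read 272, 277 and 228 at 110 mg/L, against 285, 251 and 235 in LOEC controls, so that 1 treated array lay below 228.8 and the others just above it. At 200 mg/L it read 334, 554 and 518, against 315, 236 and 267 in IC20 controls. All 3 arrays at 200 mg/L lay above their controls, array 1 only by a little. Only 200 mg/L arrays 2 and 3 read above 377, the highest reading of a mating type alpha marker. The means were 469 ± 118 at 200 mg/L and 273 ± 39.5 in IC20 controls (SD, n = 3 each), a change of 1.69-fold (log2 0.76, SE 0.18). The log2 change at 110 mg/L was 0.011, with a 95% interval from -0.38 to 0.40. The call at 200 mg/L was lost without 200 mg/L array 2 (log2 change 0.62), without IC20 control array 2 (0.66), and in a fit of only the 6 arrays of that experiment.

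The difference between the responses, 200 mg/L over its controls minus 110 mg/L over its own, is built from the same values that were in view when the genes were listed, and is given as a description. The difference passed the threshold in 2 of the 8 genes, GRE2 and GCY1, both with the larger change at 200 mg/L, where 1.25% of all genes were called, 0.991% with the larger and 0.257% with the smaller change at 200 mg/L. The difference in log2 change was 0.88 (SE 0.061) for GRE2 and 0.58 (SE 0.069) for GCY1. GLO4 had a difference of 0.75 (SE 0.25) that was not called, but it was called without 200 mg/L array 1 (0.97), and when IC20 control array 2 and 200 mg/L array 1 were both left out (0.87). For GLO2, YPR1 and GLO1 the differences were 0.20, 0.12 and 0.10, and for ARA1 and GRE3 they were -0.032 and -0.059, none of them called. Dose and experiment cannot be told apart in this comparison, since each dose was run in only 1 experiment.

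The levels of the 8 genes without alachlor were compared between the experiments, a comparison that the choice of genes did not use. The same control arrays do enter the alachlor changes that were in view, so it is not fully independent of the choice. In limma 0 of the 8 differed between IC20 and LOEC controls, 0 also at an unadjusted p under 0.05, where 0.789% of all genes were called, 0.587% as higher and 0.202% as lower in IC20 controls. The smallest adjusted p was that of GCY1, whose mean was 1186 ± 60.5 in IC20 controls and 1262 ± 38.2 in LOEC controls (SD, n = 3 each; log2 change -0.090, SE 0.049, limma adjusted p = 0.438). GRE2 had a log2 change of -0.076 (SE 0.043, limma adjusted p = 0.458) and GLO2 of -0.089 (SE 0.050, limma adjusted p = 0.456). GLO2 was the only one of the 8 whose control arrays did not overlap between the experiments, with IC20 controls below LOEC controls; 21.2% of all genes were apart, 10.9% above and 10.3% below. The remaining log2 changes ran from -0.051 for GLO1 to 0.082 for GLO4. Ordered by group mean, GRE2, GCY1 and GLO1 stood highest at 200 mg/L, then at 110 mg/L, and lowest in both untreated groups, which overlapped. For GRE3, YPR1 and ARA1 the highest group mean was 1.07, 1.10 and 1.08 times the lowest, and neighbouring groups overlapped throughout.

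The spread between arrays of a group was wider in GRE3 and ARA1 than in GRE2, in each of the 4 groups. With alachlor the SD was 2.76% of the mean at 110 mg/L and 1.74% at 200 mg/L for GRE2, against 10.9% and 8.85% for GRE3 and 5.93% and 8.23% for ARA1. In GRE3 and ARA1 alike, array 2 was the lowest at 110 mg/L and array 3 the highest, array 3 was the lowest at 200 mg/L and array 1 the highest, and array 1 was the lowest of the IC20 controls and array 3 the highest. In LOEC controls array 3 was the highest in both, while the lowest was array 2 in GRE3 and array 1 in ARA1. YPR1 had the same lowest array as ARA1 in all 4 groups, and the same as GRE3 in all but the LOEC controls. GCY1 had the same lowest and highest arrays as GRE3 in all but the IC20 controls, where its lowest was array 2. Likeness was measured as the root mean square difference, over the 12 arrays, between the log2 values of a pair of genes after the mean of each gene was taken off. By this measure ARA1 came at place 16 of 5448 genes in likeness to GRE3, with a difference of 0.071, and GRE3 came at place 123 in likeness to ARA1. Neither GRE3 nor ARA1 was called at either dose, so the likeness is not read as a shared response.

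**Figure D3:**
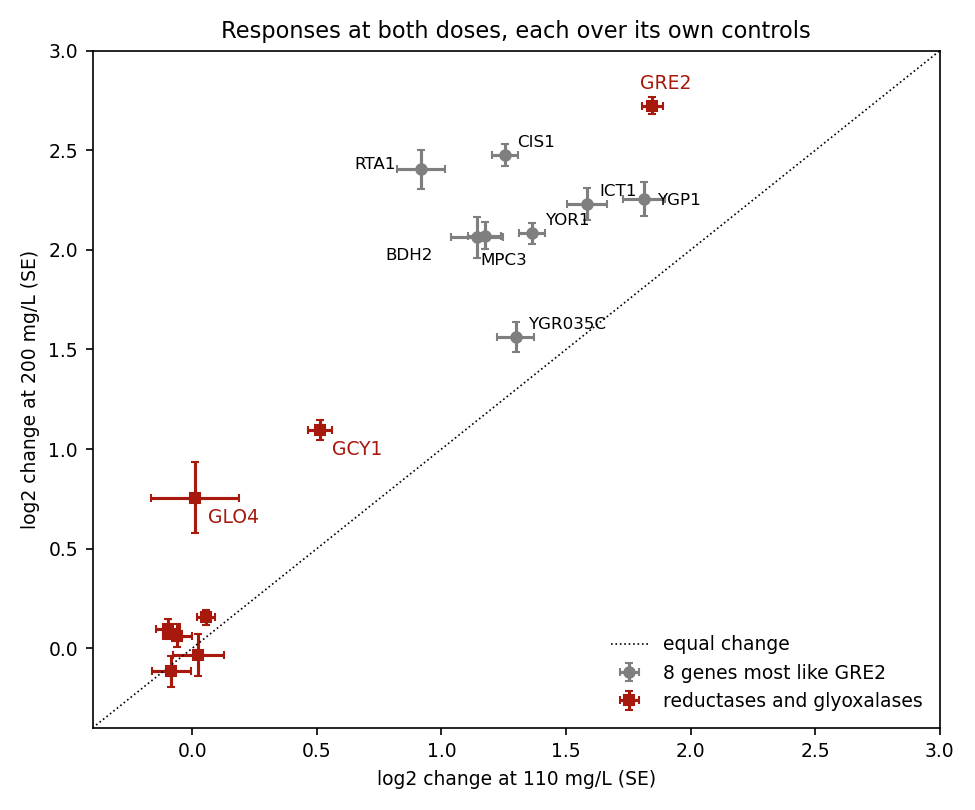
Log2 change at 110 mg/L (x axis) and at 200 mg/L (y axis), each over its own controls, with SE bars, for the 8 reductase and glyoxalase genes (squares) and for the 8 genes most like GRE2 over the 12 arrays (circles); the dotted line marks equal change. GRE2 lies at 1.85 and 2.72, GCY1 at 0.51 and 1.09, GLO4 at 0.011 and 0.76, and the unlabelled squares lie near 0; RTA1 read below 228.8 on average at 110 mg/L and in both untreated groups.

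The gene most like GRE2 over the 12 arrays was YGP1, which encodes a secreted glycoprotein, with a root mean square difference of 0.178 on the log2 scale. The acyltransferase gene ICT1 (0.219), the ABC exporter gene YOR1 (0.292), CIS1 (0.304), the mitochondrial pyruvate carrier gene MPC3 (0.336), BDH2 (0.364), RTA1 (0.401) and YGR035C (0.473) followed. GRE2's own root mean square deviation from its mean was 1.18, so these genes differ from it by a part of its total movement. That movement is mainly the alachlor change for which GRE2 was chosen. Genes near it by this measure are therefore bound to have large alachlor changes too, and nothing is read from the likeness. YGP1 changed by 1.81 at 110 mg/L and 2.26 at 200 mg/L on the log2 scale (SE 0.084 each), so its response grew by 0.44 between the doses, against 0.88 for GRE2. Of the other reductases and glyoxalases GCY1 was the most like GRE2, at place 36 with a difference of 0.750.

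The genes nearest to the other members differed from one member to the next. GCY1 was closest to HBN1, a gene of the nitroreductase family (0.078), and to AMD2, a putative amidase gene (0.091). HBN1 changed 1.42-fold and 2.05-fold, and AMD2 1.41-fold and 1.84-fold, at 110 and 200 mg/L. YPR1 was closest to YNL134C (0.029) and ZRG8 (0.040), GRE3 to AIM18 (0.042) and MRS3 (0.055), and ARA1 to TUM1 (0.032) and DFG10 (0.038). GLO1 was closest to ARF2 (0.023) and BNA5 (0.026), GLO2 to URM1 (0.037) and SCL1 (0.041), and GLO4 to MEI4 (0.172), whose group means, 55.8, 50.7, 96.6 and 55.4 at 110 mg/L, in LOEC controls, at 200 mg/L and in IC20 controls, lie below the level of the deleted loci, and PDH1 (0.181).

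Other genes around these reactions were taken from 9 lists of enzymes and regulators. The lists were written from general knowledge of yeast, with earlier results of these data known. The genes named are mostly those with the largest called changes, so their limma adjusted p-values are a description too. Of all genes 3.05% were called higher and 1.21% lower at 110 mg/L, and 10.0% and 7.80% at 200 mg/L. Nothing is read from the counts in these lists. Among 4 measured short-chain reductases related to GRE2, 1 rose and 0 fell at 110 mg/L (median log2 change 0.16), and 1 rose and 1 fell at 200 mg/L (0.15). ARI1, an aldehyde reductase, read 3936 ± 133 at 110 mg/L and 3255 ± 103 in LOEC controls, and 4817 ± 327 at 200 mg/L and 3384 ± 155 in IC20 controls (SD, n = 3 each). It rose 1.21-fold at 110 mg/L (log2 0.27, SE 0.057, limma adjusted p = 0.0222) and 1.42-fold at 200 mg/L (log2 0.51, SE 0.057, limma adjusted p = 0.000121). IRC24, a benzil reductase, fell to 0.780 of its control level at 200 mg/L (log2 -0.36, SE 0.075, limma adjusted p = 0.00781), a call that was lost in a fit of only the 6 arrays of that experiment (0.0723). Of 2 further aldo-keto reductases 1 rose at each dose and 0 fell (median log2 change 0.11 and 0.19). It was YDL124W, which reduces alpha-keto amides, with 1.29-fold at 110 mg/L (log2 0.37, SE 0.066, limma adjusted p = 0.00950) and 1.42-fold at 200 mg/L (log2 0.50, SE 0.066, limma adjusted p = 0.000433). At 110 mg/L the call of ARI1 was lost without LOEC control array 1 or 2 or 110 mg/L array 1 or 3 (limma adjusted p 0.0889 to 0.104). That of YDL124W was lost without LOEC control array 2 or 110 mg/L array 1 (0.0550 to 0.0565).

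The list of D-lactate dehydrogenases and glyoxalase III enzymes had 5 measured genes. Of these 1 rose and 0 fell at 110 mg/L (median log2 change 0.18), and 3 rose and 0 fell at 200 mg/L (0.27). Beside these counts, 3.05% and 10.0% of all genes were called higher at the 110 and 200 mg/L doses. HSP31, a glyoxalase that turns methylglyoxal into D-lactate without glutathione, read 2914 ± 87.2 at 110 mg/L and 2494 ± 96.1 in LOEC controls, and 3811 ± 187 at 200 mg/L and 2662 ± 106 in IC20 controls (SD, n = 3 each). It rose 1.17-fold at 110 mg/L (log2 0.22, SE 0.051, limma adjusted p = 0.0343) and 1.43-fold at 200 mg/L (log2 0.52, SE 0.051, limma adjusted p = 4.34e-05). DLD3, which uses D-lactate and D-2-hydroxyglutarate, rose 1.21-fold at 200 mg/L (log2 0.27, SE 0.041, limma adjusted p = 0.00110). SNO4, the last of the 3, read below 228.8 on all arrays and is given no fold, and the name of its probe set marks sequence shared with other transcripts. Without SNO4 the list had 4 genes, of which 1 rose at 110 mg/L (median log2 change 0.15) and 2 rose at 200 mg/L (0.17). The call of HSP31 at 110 mg/L was lost without LOEC control array 1 or 2 or without any one of the 3 treated arrays (limma adjusted p 0.0551 to 0.155), and after median centring.

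Upstream, among 4 measured genes that make or use triose phosphates, 1 rose at each dose and 0 fell (median log2 change 0.052 at 110 mg/L and 0.048 at 200 mg/L). TDH1, a glyceraldehyde-3-phosphate dehydrogenase, rose 1.16-fold at 110 mg/L (log2 0.22, SE 0.043, limma adjusted p = 0.0160) and 1.39-fold at 200 mg/L (log2 0.48, SE 0.043, limma adjusted p = 2.03e-05). FBA1, TPI1 and TDH3 were not called and had group means from 28764 in FBA1 to 37676 in TDH3, near the top of the range of the arrays. The call of TDH1 at 110 mg/L was lost without LOEC control array 2 or 3 or 110 mg/L array 2 or 3 (limma adjusted p 0.0505 to 0.0781). Among 9 genes of glycerol and dihydroxyacetone metabolism, where GCY1 acts, 0 rose and 0 fell at 110 mg/L by limma, 0 also at an unadjusted p under 0.05 (median log2 change 0.081), and 0 rose and 2 fell at 200 mg/L (-0.17). Without DAK2 and STL1, which read below 228.8 on all arrays, the median at 200 mg/L was -0.034. The genes that fell were GPD1, a glycerol-3-phosphate dehydrogenase (log2 -0.18, SE 0.055, limma adjusted p = 0.0444), and GUT1, glycerol kinase (log2 -0.18, SE 0.052, limma adjusted p = 0.0346). The call of GPD1 was lost without any 1 of 10 arrays and that of GUT1 without any 1 of 7 (limma adjusted p up to 0.137 and 0.116). With IC20 control array 2 and 200 mg/L array 1 both left out, the log2 changes were -0.20 and -0.21 and neither was called (limma adjusted p = 0.0923 and 0.0703).

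Of the genes that supply glutathione or NADPH, ALD6 was the only one called at either dose. In glutathione supply 0 of 3 genes were called by limma at either dose, 0 also at an unadjusted p under 0.05 (median log2 change 0.0040 at 110 mg/L and 0.046 at 200 mg/L). GSH1 and GSH2, which make glutathione, had log2 changes of 0.031 and 0.089 at 200 mg/L. Of 7 genes of NADPH supply 0 rose and 1 fell at each dose (median log2 change 0.061 and -0.045). The gene was ALD6, the cytosolic NADP-dependent aldehyde dehydrogenase, at 11333 ± 423 at 110 mg/L and 16595 ± 426 in LOEC controls, and 12026 ± 408 at 200 mg/L and 17509 ± 944 in IC20 controls (SD, n = 3 each). It fell to 0.683 of its control level at 110 mg/L (log2 -0.55, SE 0.050, limma adjusted p = 6.11e-05) and to 0.687 at 200 mg/L (log2 -0.54, SE 0.050, limma adjusted p = 2.56e-05). Of 3 NADPH alcohol and formaldehyde dehydrogenases 0 were called at 110 mg/L by limma, 2 at an unadjusted p under 0.05 (median log2 change -0.020), and 1 rose and 0 fell at 200 mg/L (0.070). ADH7 read 323, 311 and 302 at 200 mg/L and 179, 187 and 183 in IC20 controls, and the controls all lay below the level of the deleted loci. With 228.8 taken as the bound, ADH7 was at least 1.37-fold higher at 200 mg/L, the treated mean over 228.8 (limma adjusted p = 1.63e-05). Its treated arrays read below 377, the highest reading of a mating type alpha marker.

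Among 9 regulators of these genes 0 rose and 0 fell at 110 mg/L by limma, 3 passing an unadjusted p of 0.05 (median log2 change 0.048), and 1 rose and 1 fell at 200 mg/L (0.033). PDR3, a factor of pleiotropic drug resistance, read 1055 ± 90.2 at 200 mg/L and 758 ± 27.2 in IC20 controls (SD, n = 3 each; log2 change 0.47, SE 0.090, limma adjusted p = 0.00429). MSN4, a factor of the general stress response, read 529 ± 74.7 at 200 mg/L and 830 ± 133 in IC20 controls (SD, n = 3 each; log2 change -0.65, SE 0.13, limma adjusted p = 0.00565). YAP1, HOG1 and MSN2, regulators known for GRE2 or its stress response, had log2 changes of 0.14, -0.13 and 0.033 at 200 mg/L and were not called.

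**Figure D4:**
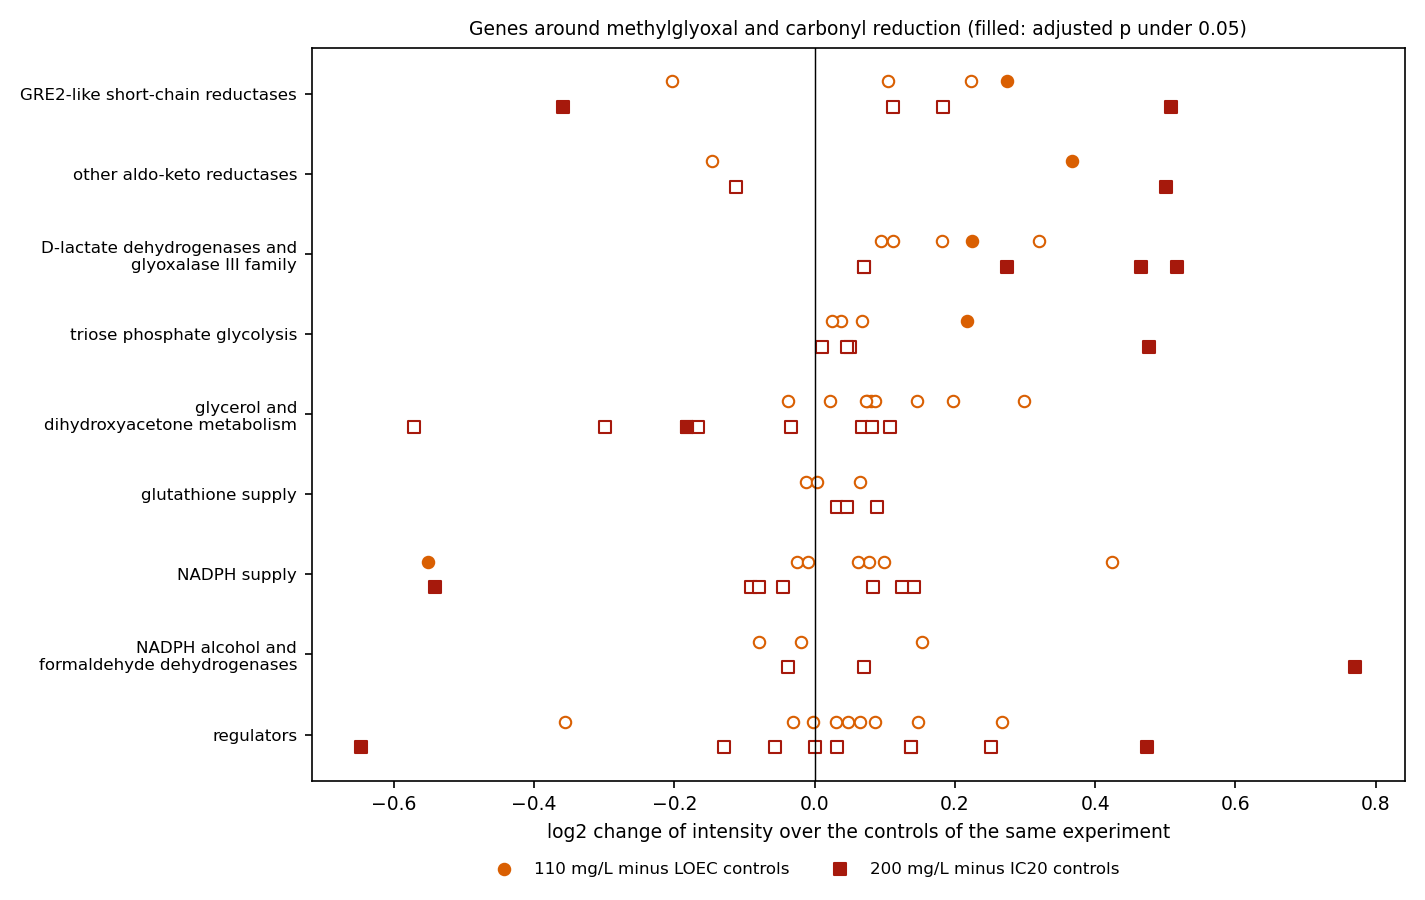
Log2 change of each measured gene in the 9 lists at 110 mg/L (circles) and 200 mg/L (squares), each over the controls of the same experiment; filled symbols passed limma at adjusted p under 0.05. At 200 mg/L MSN4 is the lowest point (-0.65) and ADH7 the highest. The plotted value of ADH7 has controls below 228.8 and stands for at least 1.37-fold, with 228.8 taken as the bound. ALD6 is the lowest point at 110 mg/L (-0.55). SNO4, DAK2 and STL1 read below 228.8 on all arrays, as did ADH7 on all but those at 200 mg/L.

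GRE2, GCY1 and GLO4 lie on chromosome XV, GLO2 and YPR1 on chromosome IV, and ARA1, GRE3 and GLO1 on chromosomes II, VIII and XIII. The nearest protein-coding genes on either side in RefSeq R64, 16 in all, were measured too, a set added after values had been seen. Of these 2 rose and 0 fell at 110 mg/L (median log2 change 0.033), where 3.05% of all genes were called higher and 1.21% lower. At 200 mg/L 2 rose and 3 fell (-0.0087), where 10.0% of all genes were called higher and 7.80% lower. Nothing is read from these counts. Beside GRE2, DCP1, a subunit of the mRNA decapping enzyme, fell to 0.907 of its control level at 200 mg/L (log2 -0.14, SE 0.042, limma adjusted p = 0.0400). FRE7, also called lower at 200 mg/L, read below the level of the deleted loci. YSW1, beside ARA1 and called lower at that dose, had means of 185 at 200 mg/L and 231 in IC20 controls, near that level. TBS1, on the other side of ARA1, rose at 110 mg/L (log2 0.13, SE 0.032, limma adjusted p = 0.0431) and at 200 mg/L (log2 0.22, SE 0.032, limma adjusted p = 0.00091). Calls of the neighbouring genes were not checked under the alternatives. RIO1 and PFY1, beside GCY1, had log2 changes of -0.14 and 0.037 at 200 mg/L and were not called. Beside GLO2, which was not called, the copper transporter gene CCC2 rose 1.40-fold at 110 mg/L (log2 0.48, SE 0.049, limma adjusted p = 0.000150) and 1.26-fold at 200 mg/L (log2 0.34, SE 0.049, limma adjusted p = 0.000856).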

How the data were processed

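RNA was labelled with biotin and hybridized to 1-colour Affymetrix Yeast Genome 2.0 arrays, per the labels' protocols. The authors deposited 1 linear intensity per array for each of 5716 probe sets. Per the submitters' processing notes the software was Affymetrix Expression Console; its summarization and normalization settings are not stated in the labels. The probe annotation tied 5498 probe sets to 1 gene, 0 to several, and left 218 unnamed. A gene with more than 1 probe set was represented by its brightest on average, which left 5449 genes. Names follow RefSeq R64, used for names, chromosomes and neighbours, without coordinates.

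The deposited intensities were turned to log2, with no pseudocount, and limma 3.58.1, run in R 4.3.3, estimated the mean of each of the 4 groups from all 12 arrays (8 residual and 2.73 prior degrees of freedom). Two-sided p-values received the Benjamini-Hochberg adjustment over all genes, with calls at 0.05. An exact permutation test of 3 arrays against 3 cannot give p below 0.1 and was not used. The fit was tested on simulated data with independent normal noise and, for each gene, the same SD in all groups. That test cannot show how calls behave under the unequal spreads and length-linked deviations of these arrays, and nothing is concluded from it. Members and lists were chosen with earlier results of these data known. The text names all 8 members, up to 4 called genes of each list (up to 2 as values where none was called), the 8 genes most like GRE2 and the 2 most like each other member. FBA1, TPI1, TDH3, YAP1, HOG1, MSN2, DAK2, STL1 and the neighbouring genes are named after their values were seen. NRE1, HSP32, HSP33 and TDH2, also in the lists, are not analysed here. The alternatives tried were other normalizations, filters, moderation, thresholds and subsets of arrays, removal of a coding-length trend, and the replicate number as a block. Samples with the same replicate number did not deviate together (correlation of deviations over genes from -0.322 to -0.0098 in the LOEC experiment and -0.615 to 0.144 in the IC20 experiment). Between different numbers the correlation reached 0.648 in the IC20 experiment, for 200 mg/L array 1 and IC20 control array 2. It went down to -0.481, for 200 mg/L array 3 and IC20 control array 2. The main fit does not model such shared deviations.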

Additional observations from a re-analysis of the deposited data

Results flagged for a closer look

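The difference of responses (200 mg/L minus 110 mg/L, each over its own controls) was 0.88 on the log2 scale in GRE2 and 0.58 in GCY1. Both passed limma's threshold over all genes, which is a description here, since the genes were chosen with these alachlor changes known. In GLO2 and YPR1 all 3 arrays at 200 mg/L lay above the mean of their controls and all 3 at 110 mg/L below the mean of theirs. The difference of responses was 0.20 in GLO2 and 0.12 in YPR1, and neither passed limma's test after adjustment. Groups of 3 arrays are too small for a check of single outlying arrays.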

How the results depend on the processing

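GRE2 and GCY1 were called at 110 mg/L under all 23 alternatives run and at 200 mg/L under all 23 run. These repeated calls are a description, since both genes were listed with their alachlor changes known. Some alternatives, such as the stricter threshold, the replicate block and leaving out an array of the other experiment, cannot move the log2 change itself. At 200 mg/L 2 of the 8 genes (GRE2 and GCY1) instead of 4 were called in a fit of only the 6 IC20 arrays, with the replicate block, and at adjusted p under 0.01, and 3 or 4 with single arrays left out. GLO4 is among the 20% dimmest genes and has no value where these are left out. For the difference of responses 1 gene (GRE2) instead of 2 was called with the replicate block, and 2 or 3 with single arrays left out. The replicate block also ended the calls of ARI1, YDL124W, HSP31 and TDH1 at 110 mg/L (limma adjusted p = 0.139, 0.0804, 0.215 and 0.159) and of GPD1, GUT1 and SNO4 at 200 mg/L (0.125, 0.0989 and 0.050). It changed no call of a member at 110 mg/L, and none could be fitted between the untreated groups. There 0 members were called under any alternative run, with log2 changes near 0, some of which changed sign. ARA1 gave -0.0011 with median centring and -0.019 with the length trend removed. It gave -0.016 without IC20 control array 2 and 200 mg/L array 1. YPR1 gave -0.0042 with the length trend removed. With single arrays left out the log2 change between the untreated groups ran from -0.11 to 0.057 for GRE3, -0.029 to 0.061 for YPR1, -0.049 to 0.067 for ARA1 and -0.027 to 0.18 for GLO4. Over all genes 232 were called at 110 mg/L (97 with the replicate block, 108 at adjusted p under 0.01, 113 to 266 with single arrays left out), 971 at 200 mg/L (519, 481, 713 to 973, and 444 in the 6 arrays), 68 for the difference (21, 32, 39 to 68) and 43 between the untreated groups (7 at adjusted p under 0.01, 80 with the length trend removed, 5 to 58). Higher calls were 71.6% of those at 110 mg/L (61.3% after quantile normalization, 57.3% after median centring) and 56.2% at 200 mg/L (49.6% and 45.8%). The causes were not tested.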
